A study of Mus musculus with 6 samples.

Results

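Heat shock proteins and their DnaJ partners are the chaperones that fold, hold, refold and hand on other proteins. The genes described here were taken by name from the array: symbols of the Hspa, Hspb, Hspd, Hspe, Hsph and Hsp90 families and of the Dnaja, Dnajb and Dnajc families. Of 73 such genes, 6 were left out (Hspa5, Hsp90b1, Dnajb9, Dnajb11 and Dnajc3, which serve the secretory pathway, and Hspbap1), which left 67 of the 34742 genes on the array, measured by 102 probes. The rule uses names and no expression value. The 3 arrays of the 900 cGy group carried spleen RNA of mice taken 24 h after total body irradiation with X-rays at that dose. The other 3 arrays carried spleen RNA of resting mice given 0 cGy. All mice were of the strain B10.BALB-16.C2A, a congenic strain by the series title, and RNA on an array came from 3 mice pooled, so p-values measure the spread between pools. The age and sex of the mice were not used here.

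In the heat shock response, unfolded protein frees heat shock factor 1, which binds repeated GAA units in the promoters of chaperone genes and raises their transcription. The HSP70 proteins bind and release client proteins in a cycle driven by ATP. DnaJ proteins start that cycle by stimulating the HSP70 ATPase, and HSP110 proteins end it by exchanging the nucleotide. HSP90 receives clients such as kinases and steroid receptors from HSP70, the HSP60 and HSP10 chaperonin folds proteins inside mitochondria, and small heat shock proteins hold unfolded proteins without using ATP. In spleen these genes are expressed by lymphocytes, red cell precursors, macrophages and stroma alike, and dividing cells use chaperones heavily.

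The promoters of 4 members are shown, because they hold letters that match heat shock factor elements and the transcripts went in different directions in these arrays. Capitals mark matches to 2-unit elements, GAA-NN-TTC or TTC-NN-GAA, which read alike on both strands, and to 3-unit elements, GAA-NN-TTC-NN-GAA or its reverse complement TTC-NN-GAA-NN-TTC, which contain 2-unit ones (N is any base, and hyphens only set the units apart). The sequences are RefSeq's, on GRCm38.p6, written 5′ to 3′ on the gene's strand. Those of Hspa1a (chr17:34972157-34972306, minus strand) and Hspb1 (chr5:135887769-135887918, plus strand) are the 150 bases before the start site. Hspd1 and Hspe1 are divergent neighbours, and the same 58 bases (chr1:55088039-55088096) are given on the minus strand for Hspd1 and on the plus strand for Hspe1.
Hspa1a: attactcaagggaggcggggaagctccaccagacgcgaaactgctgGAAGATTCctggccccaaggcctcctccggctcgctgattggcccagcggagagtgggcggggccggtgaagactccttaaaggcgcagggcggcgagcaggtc
Hspb1: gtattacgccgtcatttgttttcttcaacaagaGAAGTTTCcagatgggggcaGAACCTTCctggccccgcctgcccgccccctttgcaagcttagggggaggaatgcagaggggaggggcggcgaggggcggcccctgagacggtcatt
Hspd1: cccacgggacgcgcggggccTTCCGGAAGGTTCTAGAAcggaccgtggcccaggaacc
Hspe1: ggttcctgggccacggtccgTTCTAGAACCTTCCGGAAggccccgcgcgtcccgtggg

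A RefSeq window from 250 bases before to 50 after a start site was at hand for 53 of the 67 members. The 3-unit element occurred in 4 of these 53 (7.55%), namely Hspd1, Hspe1, Hsph1 and Dnajb6, against 179 of 27025 genes with a window (0.662%). A 2-unit element occurred in 15 of 53 members (28.3%), against 4587 of 27025 genes (17%). Hspd1 and Hspe1 share 1 element, so these are 3 independent 3-unit elements. Of the members with the 3-unit element, 3 were lower at 900 cGy and Dnajb6 did not pass the test. In 1 of the lower ones, Hsph1, the match lay after the start site. None of the 12 higher members that have a window held the element. With an element this rare over all genes, such counts cannot relate it to the direction of change. A 2-unit element was held by 3 of 12 higher members (25%), namely Hspa1a, Hspb1 and Hspb8. It was also held by 3 of 14 lower members (21.4%), namely Hspd1, Hspe1 and Hsph1. Of the members that did not pass, 7 of 24 held it (29.2%), and of those not tested 2 of 3. A match of letters is a description of the window and does not show that a factor binds there.

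All 6 arrays lay on 1 slide and were scanned together. Between 39036 and 39979 probes were well above background on a 900 cGy array and between 39630 and 41267 on a 0 cGy array, without any saturated spot. Levels are given here on a log2 scale on which 0 is the 75th percentile of the array's signals. B cell markers, which mark the tissue as lymphoid, were well above background on all arrays, 8 of 8, and their summed signal (in units of the 75th percentile) was 50.01 to 55.7 at 900 cGy and 290 to 375 at 0 cGy. All 7 tested markers of dividing cells fell (sums of 9.97 to 10.9 at 900 cGy and 46.3 to 137 at 0 cGy), as did 8 of 8 erythroid markers (8.07 to 13.1 at 900 cGy, with Rhd not well above background on any of those arrays, and 137 to 336 at 0 cGy). All 8 macrophage markers rose (516 to 541 at 900 cGy and 136 to 141 at 0 cGy). Replicate 3 of the 0 cGy group had the lowest sums of its group for erythroid and dividing-cell markers and the highest for B cells. Markers of exocrine pancreas, a tissue outside the spleen, summed to 796 to 1058 at 900 cGy and 2.01 to 79.7 at 0 cGy. In whole spleen RNA, fewer cells of a type and less RNA per cell cannot be told apart.

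Chaperone genes did not move as a block. Of the 67 members 64 were tested, and 17 were higher and 18 lower at 900 cGy at an adjusted p under 0.05, while 29 did not pass, so that 35 (54.7%) changed, against 59.3% of all genes (limma with Benjamini-Hochberg adjustment over 26642 genes, n = 3 pools per group). Higher members made up 26.6% of those tested, against 28.3% of all genes, and lower members 28.1%, against 31% of all genes. The median log2 change of the members was -0.02, and that of all genes was -0.06. The small heat shock proteins and the inducible HSP70 gene Hspa1a stood at the upper end, up to a 4.33-fold increase of Hspb8. The histone cochaperone Dnajc9 stood at the lower end, 2.74-fold lower. A change of at least 2-fold was found for 8 higher and 3 lower members, 14.2% and 9.33% being the shares of all genes that pass both limits.

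The 2 groups of arrays did not overlap for 44 of 64 members (68.75%), against 67.4% of all genes. That count includes all 35 members past the threshold. Dnajc5g and Hspb3, which were not well above background on any array, and Dnajb7, which was so on 1 array of each group, were not tested. Of the tested members 63 were well above background on all 6 arrays. The exception was Hspa12a, an atypical HSP70 gene, which was above background on 2 of 3 arrays at 0 cGy; its log2 change was 1.28 ± 0.55 (SE; adjusted p = 0.0849).

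**Figure D1:**
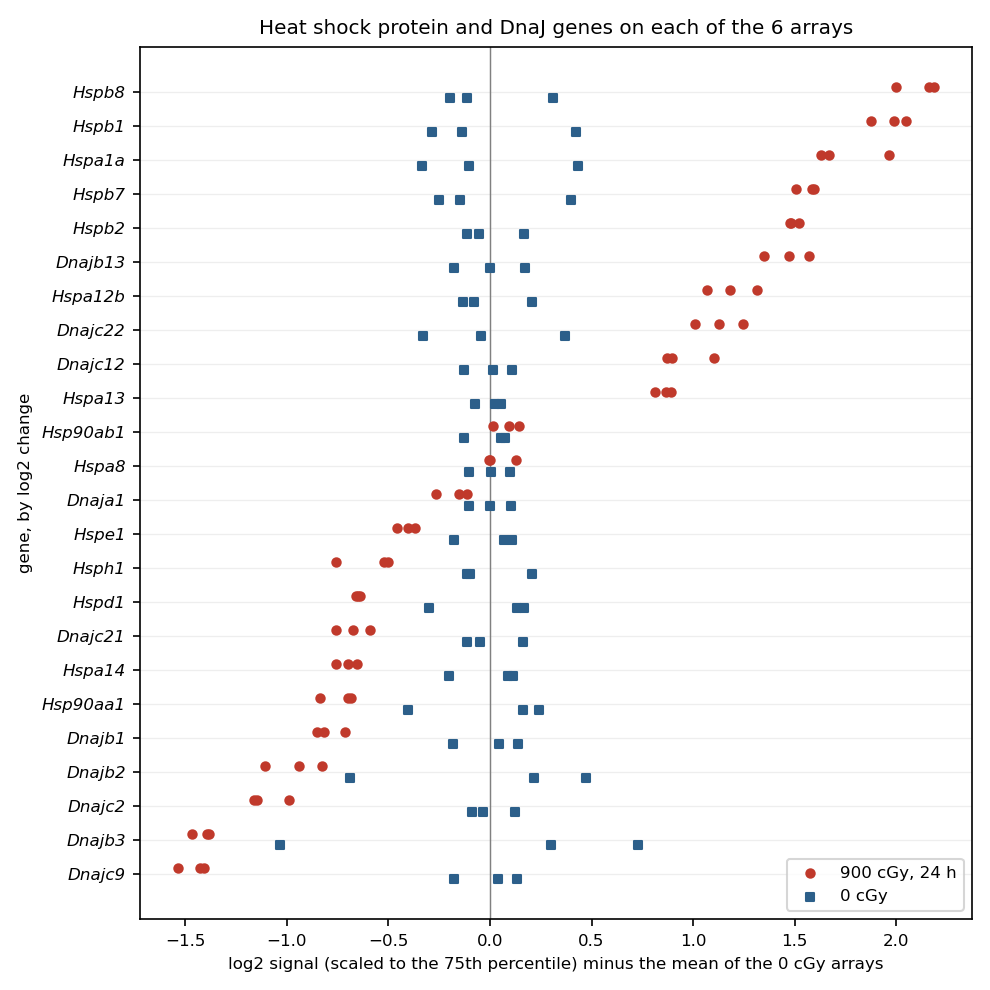
Log2 signal of 24 members on each array, relative to the mean of the 0 cGy arrays (red circles, 900 cGy; blue squares, 0 cGy; 1 point per pool of 3 mice). The genes run by log2 change from Hspb8 (2.12) to Dnajc9 (-1.46); the groups overlap for Hsp90ab1 and Hspa8 and for none of the other genes shown.

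Most of the small heat shock proteins rose. Of 7 members 6 were tested: 4 rose, 2 did not pass and none fell (with spike-in scaling, 4 rose and 1 fell). Their median log2 change was 1.53. Over the array, 28.3% of genes were higher and 31% lower. Hspb8, which works with Bag3 to direct aggregated protein to autophagy, measured 0.30, 0.27 and 0.12 on the 900 cGy arrays, against -2.08, -2.0 and -1.58 on the 0 cGy arrays. The groups were separate by more than the whole range of either, and the log2 change was 2.12 ± 0.15 (SE; limma adjusted p = 0.000104).

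Hspb1, known as HSP27, binds unfolded proteins and the actin skeleton. It measured 5.24, 5.07 and 5.18 at 900 cGy, against 2.91, 3.06 and 3.62 at 0 cGy. Replicate 3 was the highest unirradiated array and still lay well below all irradiated ones. The change was 3.92-fold (log2 1.97 ± 0.19 SE, adjusted p = 0.000273).

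Hspb7 and Hspb2 are best known from heart and skeletal muscle. Hspb7 measured -2.05, -1.97 and -1.96 at 900 cGy and -3.70, -3.81 and -3.16 at 0 cGy, a 2.96-fold increase (adjusted p = 0.000492). Hspb2 measured 0.77, 0.76 and 0.81 at 900 cGy and -0.77, -0.82 and -0.54 at 0 cGy, a 2.81-fold increase (adjusted p = 8.95e-05). Neither gene's groups overlapped, and the irradiated pools of Hspb2 had an SD of 0.02 against 0.15 in the unirradiated ones. The probe used for Hspb8 lies at chr5:116859063-116859122, that for Hspb1 at chr5:136365366-136365425, that for Hspb7 at chr4:140980355-140980414 and that for Hspb2 at chr9:50559211-50559270 (mm9, from the array files).

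Of the same family, Hspb6, a muscle small heat shock protein, averaged 0.12 ± 0.05 at 900 cGy and 0.14 ± 0.32 at 0 cGy (SD, n = 3), and its groups overlapped. Hspb9, a testis gene, had a log2 change of -0.21 ± 0.15 (SE; adjusted p = 0.267). Cryab, the related alpha B-crystallin, is not a member by name; it measured 2.77, 2.70 and 2.63 at 900 cGy and 1.27, 1.0 and 1.32 at 0 cGy (2.83-fold, adjusted p = 0.000113). Markers of cell types other than lymphocytes moved with these genes. All 6 smooth muscle markers rose (sums of 125 to 132 at 900 cGy and 51.2 to 72.5 at 0 cGy), with log2 changes between 1.04 and 1.54, and so did all 5 adipocyte markers (35.4 to 40.1 at 900 cGy and 2.24 to 3.35 at 0 cGy) and all 4 mesothelial markers (22.1 to 26.1 at 900 cGy and 3.37 to 6.73 at 0 cGy). Of 7 skeletal muscle markers, 2 rose and 3 fell (sums of 2.15 to 2.19 at 900 cGy and 1.15 to 1.40 at 0 cGy), Myh4 was well above background on none of the arrays, and Ckm on none at 900 cGy and 1 at 0 cGy. The part of these cells in the rise of the small heat shock proteins was not tested.

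The HSP70 genes went in both directions. Of 9 tested, 3 rose, 2 fell and 4 did not pass, with a median log2 change of 0.14. Among all genes tested, 28.3% were higher and 31% lower. Hspa1a, the stress-inducible HSP70, measured -1.74, -1.45 and -1.78 at 900 cGy, against -3.75, -3.51 and -2.98 at 0 cGy. All irradiated arrays were above all unirradiated ones, and the change was 3.38-fold (log2 1.76 ± 0.21 SE, adjusted p = 0.000642). Hspa1b is a nearly identical copy of Hspa1a with no probe of its own among the names searched, so the value may hold transcripts of both. The Hspa1a probe lies at chr17:35107117-35107176 (mm9).

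Hspa8, the constitutive HSP70 of every cell, measured 7.04, 6.91 and 6.92 at 900 cGy, against 6.92, 7.01 and 6.81 at 0 cGy. Its groups overlapped, the log2 change was 0.04 with a 95% confidence interval from -0.18 to 0.26, and 2 further probes gave -0.02 and 0.07. The sign of so small a change was not stable: it was negative with spike-in scaling (-0.25), and it passed the test as higher with quantile normalization.

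Hspa12b, an atypical HSP70 of endothelial cells, measured -0.72, -0.47 and -0.60 at 900 cGy and -1.86, -1.92 and -1.58 at 0 cGy (2.28-fold, adjusted p = 0.000356). A dimmer second probe of this gene had a log2 change of -0.09 ± 0.15 (SE) and did not pass, so the probes of Hspa12b disagree. Of 5 endothelial markers 4 rose and Pecam1 did not pass (sums of 24.5 to 25.3 at 900 cGy and 9.25 to 10.9 at 0 cGy), and their part in this result was not tested. Hspa13, an HSP70 of the endoplasmic reticulum, measured 0.96, 1.02 and 1.04 at 900 cGy and 0.07, 0.17 and 0.20 at 0 cGy. Its groups were far apart relative to their spread (1.81-fold, adjusted p = 0.000235), and a second probe rose as well, by a log2 change of 1.18 ± 0.22 (SE).

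Hspa14, a ribosome-bound HSP70, measured 3.29, 3.18 and 3.25 at 900 cGy and 4.06, 4.03 and 3.74 at 0 cGy (1.63-fold lower, adjusted p = 0.00189). Hspa9, the HSP70 of the mitochondrial matrix, fell less, by 0.32 on the log2 scale (SE 0.10, adjusted p = 0.032). Hspa2 and Hspa1l, both testis HSP70 genes, had log2 changes of 0.14 and -0.02 and did not pass. In the HSP110 family, which exchanges nucleotide on HSP70, Hsph1 measured 1.92, 1.89 and 1.66 at 900 cGy and 2.30, 2.62 and 2.32 at 0 cGy. Its groups did not overlap (1.51-fold lower, adjusted p = 0.00708), and a second probe had a log2 change of -0.56. Hspa4 was lower by the brightest probe (log2 change -0.59 ± 0.08 SE), but its other probes gave -0.02 and -0.12 and did not pass. Hspa4l, the other member of that family, averaged 0.89 ± 0.08 at 900 cGy and 0.57 ± 0.17 at 0 cGy (SD, n = 3; adjusted p = 0.0501).

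Of the 2 cytosolic HSP90 genes, 1 fell and 1 did not pass, and the difference between them was not tested. Hsp90aa1, the heat-inducible HSP90, measured 3.87, 3.85 and 3.71 at 900 cGy, against 4.71, 4.79 and 4.14 at 0 cGy. The groups were separate, with unirradiated replicate 3 the closest to the irradiated arrays, and the gene was 1.67-fold lower (log2 -0.74 ± 0.18 SE, adjusted p = 0.0123). Hsp90ab1, the constitutive form, measured 7.03, 6.98 and 6.90 at 900 cGy and 6.96, 6.94 and 6.76 at 0 cGy. Those groups overlapped, and the 95% confidence interval of the log2 change ran from -0.14 to 0.31. Its sign too turned with spike-in scaling (-0.20), and with quantile normalization it passed as higher.

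Both mitochondrial chaperonin genes fell. Hspd1, which encodes HSP60, measured 4.01, 3.99 and 4.0 at 900 cGy, against 4.82, 4.78 and 4.35 at 0 cGy (1.57-fold lower, adjusted p = 0.00691). Hspe1, which encodes its lid HSP10 and shares its promoter as printed above, measured 4.02, 3.93 and 3.99 at 900 cGy and 4.46, 4.50 and 4.21 at 0 cGy (1.33-fold lower, adjusted p = 0.0134). In both genes no array of one group lay within the other, and replicate 3 was the lowest unirradiated array. All 3 probes of Hspe1 fell, with log2 changes between -0.59 and -0.36.

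A list of 10 genes taken as the heat-inducible core did not move together at 24 h. It holds Hspa1a, Hsph1, Hsp90aa1, Hspb1, Hspd1, Hspe1, Dnajb1 and Dnaja1, and also the constitutive Hspa8 and Hsp90ab1. Of these, 2 were higher, 5 lower and 3 did not pass, at a median log2 change of -0.29. For comparison, 28.3% of all genes were higher and 31% lower. The 2 that rose, Hspa1a and Hspb1, did so by 3.38-fold and 3.92-fold. The 5 that fell, all by less than 2-fold, included both chaperonin genes and Hsph1. With the slide row as a block, 2 of the list were higher and only 1, Dnajb1, was lower. The counts hold for this list and depend on how it was drawn. Dnajb1, the main cytosolic DnaJ partner of inducible HSP70, measured 3.61, 3.71 and 3.57 at 900 cGy, against 4.56, 4.47 and 4.24 at 0 cGy. It was 1.74-fold lower (log2 -0.80 ± 0.11 SE, adjusted p = 0.00105) with no overlap, so Dnajb1 and Hspa1a changed in opposite directions in the same pools. Dnaja1, a cytosolic DnaJ with a farnesylated tail, measured 4.39, 4.54 and 4.51 at 900 cGy and 4.55, 4.76 and 4.66 at 0 cGy. Its groups touched without overlapping, it did not pass (log2 -0.18 ± 0.09 SE, adjusted p = 0.145), and a second probe had a log2 change of 0.42.

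**Figure D2:**
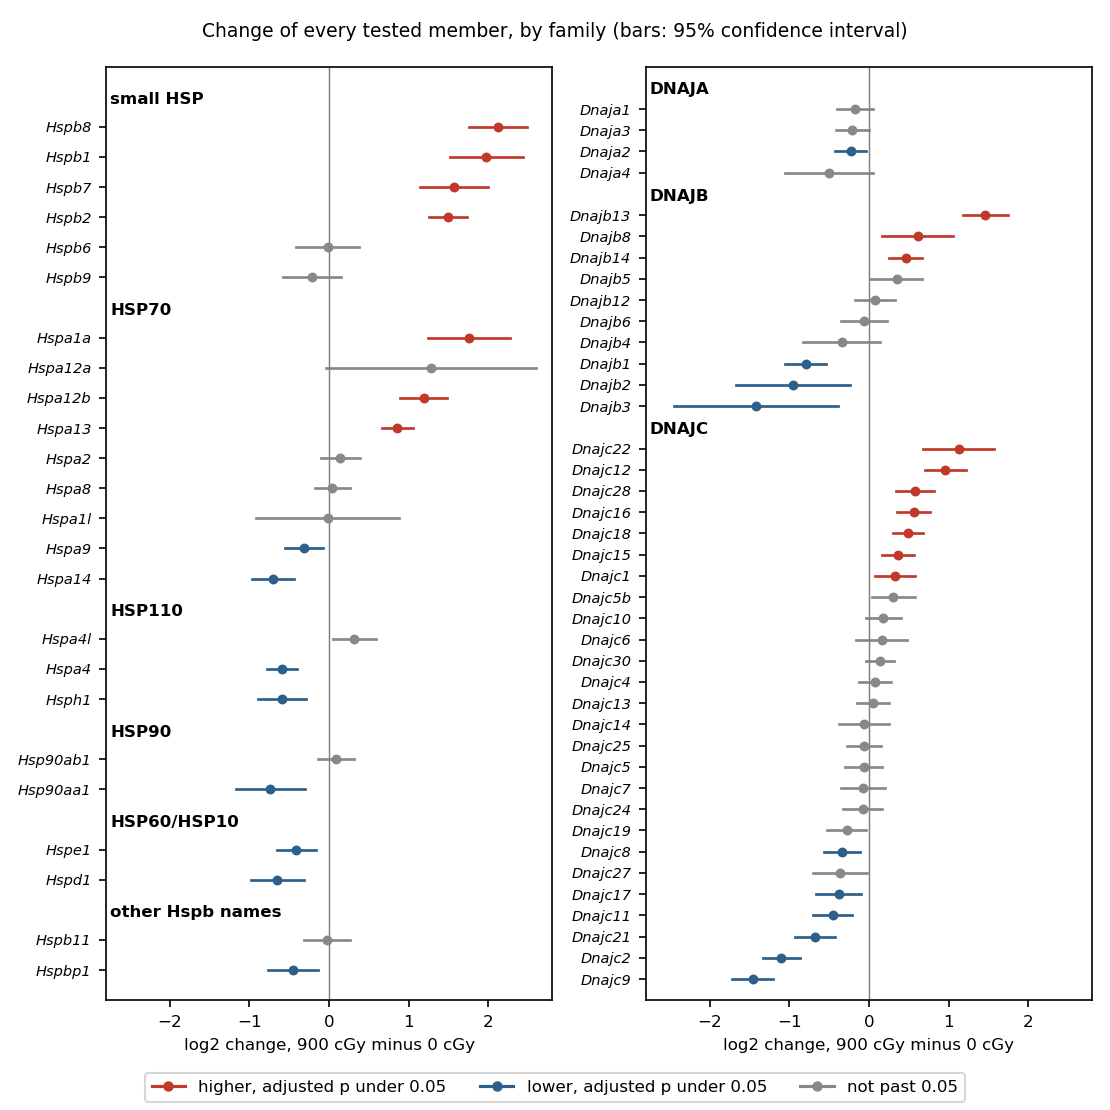
Log2 change (900 cGy minus 0 cGy) of the 64 tested members by family, with 95% confidence intervals (red, higher; blue, lower; grey, adjusted p not under 0.05). Higher small heat shock proteins lie between 1.49 and 2.12, and the chaperonin genes at -0.41 and -0.65, while DNAJB and DNAJC members spread to both sides of 0.

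Among the DNAJ genes, the DNAJA family had 1 lower member and 3 that did not pass. Dnaja2, a cytosolic HSP70 partner, was that member, with a small log2 change of -0.23 ± 0.08 (SE; adjusted p = 0.0495), and its second probe gave 0.32. With the probes averaged the change of Dnaja2 was 0.04, so its direction rests on the probe. Dnaja3, a mitochondrial DnaJ, and Dnaja4 had log2 changes of -0.21 and -0.50 and did not pass.

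The DNAJB family held 3 higher, 3 lower and 4 members that did not pass, at a median of 0.0044. Shares over all genes were 28.3% higher and 31% lower. Dnajb13, a component of sperm flagella and cilia, measured -1.12, -1.0 and -0.90 at 900 cGy and -2.47, -2.65 and -2.29 at 0 cGy. All its irradiated pools were above the unirradiated ones (2.76-fold, adjusted p = 0.00015). Dnajb8, a testis gene whose product keeps proteins from aggregating, and Dnajb14, a membrane protein of the endoplasmic reticulum, rose by log2 changes of 0.61 and 0.46, and a second probe of Dnajb14 by 0.69.

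Dnajb3, a testis gene in this family, measured -2.28, -2.29 and -2.37 at 900 cGy, against -0.17, -0.60 and -1.93 at 0 cGy. The irradiated arrays were within 0.1 of each other, while the unirradiated ones had an SD of 0.92 (2.66-fold lower, adjusted p = 0.0278). Dnajb2, which binds ubiquitinated clients and is best known from neurons, measured 1.61, 1.5 and 1.33 at 900 cGy and 2.91, 2.65 and 1.75 at 0 cGy. Here too replicate 3 lay nearest to the irradiated pools (1.94-fold lower, adjusted p = 0.0302), and a second probe had a log2 change of -1.28. With 1 array left out, the calls of Dnajb2 and Dnajb3 held without 0 cGy replicate 3 and were lost in the other 5 fits, at an adjusted p between 0.0576 and 0.0955. Dnajb5, Dnajb12, Dnajb6 and Dnajb4 had log2 changes of 0.35, 0.08, -0.07 and -0.34 and did not pass.

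The DNAJC family, which joins a J domain to many other functions, had 7 higher, 6 lower and 13 members that did not pass of 26 tested. Over all genes the shares were 28.3% higher and 31% lower. Dnajc9, a chaperone of newly made histones H3 and H4 that recruits HSP70 to them, measured 2.86, 2.99 and 2.97 at 900 cGy, against 4.43, 4.53 and 4.22 at 0 cGy. The gap between the groups was many times the SD of either (0.07 at 900 cGy and 0.16 at 0 cGy), and the gene was 2.74-fold lower (log2 -1.46 ± 0.11 SE, adjusted p = 0.000112). Its probe lies at chr14:21204183-21204242 (mm9). The dividing-cell markers fell beside it, as given above, and their part in this result was not tested.

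Among the lower members were 3 ribosome-linked chaperones, grouped with their values known. Dnajc2, also called MPP11, forms the ribosome-associated complex with Hspa14 and measured -0.17, -0.16 and -0.0014 at 900 cGy, against 0.90, 1.11 and 0.95 at 0 cGy. The groups were far apart (2.14-fold lower, adjusted p = 0.0002), and a second probe had a log2 change of -0.93. Dnajc21, which acts in the making of the large ribosomal subunit, measured -0.30, -0.47 and -0.39 at 900 cGy and 0.45, 0.24 and 0.17 at 0 cGy (1.60-fold lower, adjusted p = 0.00183), and 2 more probes fell too. With Hspa14, these are 3 of 3 members of the group that were lower, against 31% of all genes. Because the grouping was made with the values known, that count does not test it.

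Among the higher DNAJC genes, Dnajc22, known from fly for a role in endocytosis, measured -2.28, -2.39 and -2.16 at 900 cGy and -3.73, -3.44 and -3.03 at 0 cGy (2.18-fold, adjusted p = 0.00225). Dnajc12, a partner of the aromatic amino acid hydroxylases, measured 0.013, 0.24 and 0.04 at 900 cGy and -0.99, -0.84 and -0.75 at 0 cGy (1.94-fold, adjusted p = 0.00047). In neither gene did the groups overlap. Smaller rises were found for Dnajc28 (log2 change 0.58), Dnajc16 (0.56), Dnajc18 (0.49), Dnajc15 (0.36) and Dnajc1 (0.33).

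Grouped by compartment, again with the values known, 5 of 8 members of the endoplasmic reticulum rose and 3 did not pass. None was lower, and the median log2 change was 0.39. Among all genes 28.3% were higher and 31% lower. The 8 do not include Hspa5, Hsp90b1, Dnajb9, Dnajb11 and Dnajc3 of the secretory pathway, which the rule left out. Those that rose were Hspa13, Dnajb14, Dnajc1, Dnajc16 and Dnajc18. Dnajc10, a reductase of that compartment, Dnajb12 and Dnajc14 had changes of 0.18, 0.08 and -0.06. Genes of secretory cells moved beside them: all 5 plasma cell markers rose (sums of 190 to 208 at 900 cGy and 69.3 to 91.6 at 0 cGy), and all 8 exocrine pancreas markers rose (796 to 1058 at 900 cGy and 2.01 to 79.7 at 0 cGy, where Cela2a and Pnlip were well above background on 2 of 3 arrays). Their part in these changes was not tested. With spike-in scaling Hspa13 alone of the 5 passed, and with the slide row as a block Dnajb14 and Dnajc1 lost their calls (adjusted p = 0.0501 and 0.25).

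Of the 8 members placed in a mitochondrial group, again with the values known, 1 was higher, 4 were lower and 3 did not pass. The median log2 change was -0.30, and among all genes 28.3% were higher and 31% lower. These counts depend on how the group was drawn, and the difference from the endoplasmic reticulum was not tested. Hspd1, Hspe1, Hspa9 and Dnajc11, which helps shape the cristae, were lower, the last by a log2 change of -0.46 ± 0.10 (SE; adjusted p = 0.00769). Dnajc15, a protein of the inner membrane, was the higher one, averaging 3.97 ± 0.05 at 900 cGy and 3.61 ± 0.07 at 0 cGy (SD, n = 3). Dnaja3, Dnajc19 and Dnajc30 had log2 changes of -0.21, -0.28 and 0.14 and did not pass, and the probes of Dnajc19 disagreed in sign (-0.28 and 0.25). With the slide row as a block none of the 5 calls held, at adjusted p of 0.0569 for Hspd1, 0.0724 for Dnajc11, 0.0839 for Dnajc15, 0.112 for Hspe1 and 0.292 for Hspa9.

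The remaining lower DNAJC members were the nuclear proteins Dnajc17 (log2 change -0.38) and Dnajc8 (-0.34), both linked to pre-mRNA splicing. Of the rest, Dnajc5, the cysteine string protein of secretory vesicles, Dnajc7, a cytosolic partner of HSP70 and HSP90, Dnajc13, an endosomal protein, and Dnajc24, an enzyme of diphthamide synthesis, had log2 changes between -0.08 and 0.05. Dnajc4, Dnajc25, Dnajc6 and Dnajc27 had 0.07, -0.06, 0.16 and -0.36, and Dnajc5b, a testis relative of Dnajc5, had 0.30; none passed. A dimmer probe of Dnajc5 fell by 0.47 while its brightest probe gave -0.07. Outside the chaperone families proper, Hspbp1, an exchange factor for HSP70, was lower by a log2 change of -0.46 ± 0.13 (SE; adjusted p = 0.0226), and Hspb11, an intraflagellar transport protein despite its name, had -0.03.

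Several probes were tested for 24 members. In a fit over all 39683 tested probes, 19 of these genes had every probe with the same call, and none had probes that passed in opposite directions. The brightest probes of Dnaja1 and Dnaja2 did not pass in that fit, while their second probes rose, by 0.42 and 0.32.

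**Figure D3:**
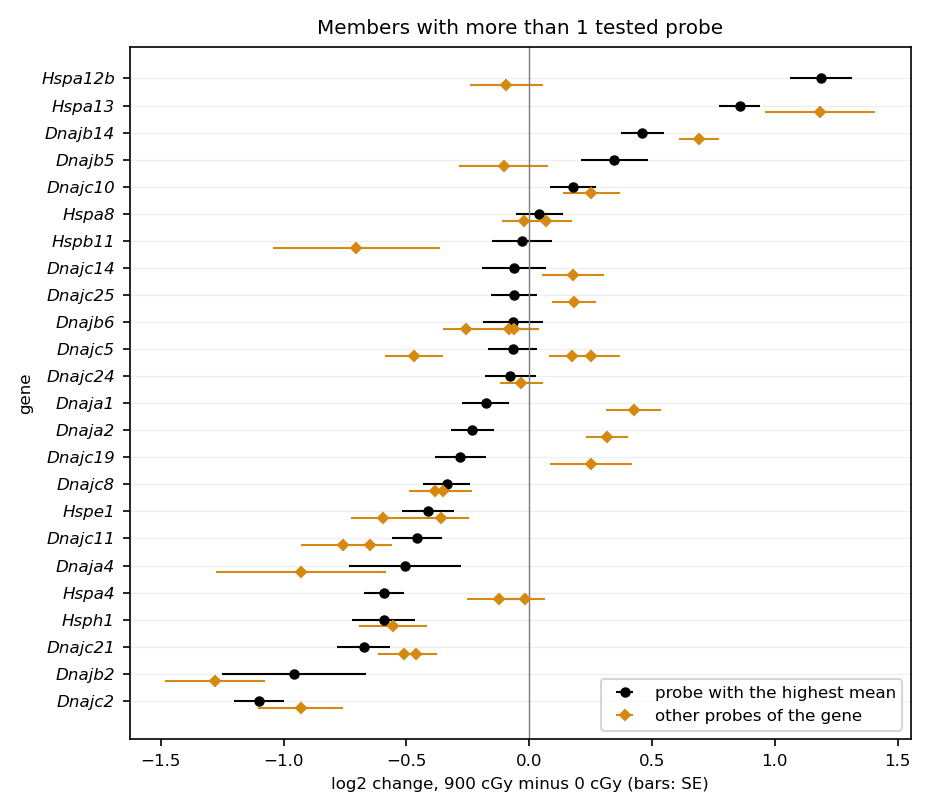
Log2 change (900 cGy minus 0 cGy, bars 1 SE) of each tested probe of the 24 members with more than 1, with the probe used for the gene in black and the others in orange. Probes of Dnajc2, Dnajc21, Hsph1 and Hspe1 lie on the same side of 0, and those of Hspa12b, Dnaja1, Dnaja2 and Dnajc19 on both sides.

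A list of 54 heat shock factors, cochaperones and other folding genes, which holds no member, had more lower than higher genes. In it 7 (13%) were higher, 22 (40.7%) lower and 25 did not pass, with a median log2 change of -0.18. Among all genes 28.3% were higher and 31% lower. Of the 22 lower genes, 8 were those of the TRiC chaperonin. These encode subunits of a single complex, and without them the lower share of the list would be close to that of all genes. The list was chosen with earlier results of these data known, so its counts do not test it. With the slide row as a block, 7 of the list were higher and 13 lower, against 5676 higher and 6279 lower genes over the array. All 8 measured genes of the TRiC chaperonin, which folds actin and tubulin, fell (median log2 change -0.76; 6 of 8 passed with the slide row as a block), and 3 of 6 prefoldin genes, which hand clients to it, fell with none higher. Tcp1, a TRiC subunit, measured 2.21, 2.07 and 2.07 at 900 cGy and 3.42, 3.25 and 3.03 at 0 cGy (2.17-fold lower, adjusted p = 0.000409). Vbp1, a prefoldin subunit, measured 0.82, 0.73 and 0.81 at 900 cGy and 1.79, 1.71 and 1.53 at 0 cGy. Neither gene's groups overlapped, and Vbp1 was 1.86-fold lower.

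Of the 15 HSP90 cochaperones in the list, 1 rose, 5 fell and 9 did not pass, against 28.3% higher and 31% lower among all genes. Fkbp5, an immunophilin of steroid receptor complexes, rose (log2 change 0.71). The lower ones were Fkbp4, Stip1, Ppid, Chordc1 and Ahsa2. Hscb, a mitochondrial J protein of iron-sulphur cluster assembly, measured 1.72, 1.88 and 1.94 at 900 cGy and 2.81, 2.86 and 2.70 at 0 cGy (1.92-fold lower, adjusted p = 0.000319). Its irradiated arrays all lay below its unirradiated ones. The BAG family, which releases clients from HSP70, had 1 higher and 2 lower genes and 3 that did not pass, beside the same all-gene shares. Bag3, the partner of Hspb8, measured 2.90, 2.92 and 2.93 at 900 cGy and 1.60, 1.80 and 1.76 at 0 cGy (2.30-fold, adjusted p = 0.000108). Bag2 measured -1.76, -1.77 and -1.87 at 900 cGy and 0.80, 0.23 and -0.81 at 0 cGy. It was 3.66-fold lower with a wide unirradiated spread (adjusted p = 0.00575), while Bag3 was tight in both groups.

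Serpinh1, the collagen chaperone HSP47, measured 3.95, 3.78 and 3.65 at 900 cGy and 1.92, 1.93 and 2.22 at 0 cGy. It was 3.42-fold higher (adjusted p = 0.000102) and had the largest increase of this list. The heat shock factors differed in direction. Hsf1, the factor that drives the heat shock response, measured 0.89, 0.83 and 0.88 at 900 cGy and 1.54, 1.42 and 1.60 at 0 cGy (1.57-fold lower, adjusted p = 0.000836). Hsf2, a factor with a role in development, measured -0.28, -0.09 and -0.09 at 900 cGy and -1.01, -0.80 and -0.90 at 0 cGy (1.68-fold higher, adjusted p = 0.000945). Hsf4, a factor known from the lens, measured -2.25, -2.21 and -2.07 at 900 cGy and -3.15, -3.43 and -3.08 at 0 cGy (2.06-fold higher, adjusted p = 0.00051). No overlap between the groups was seen in any of the 3.

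**Figure D4:**
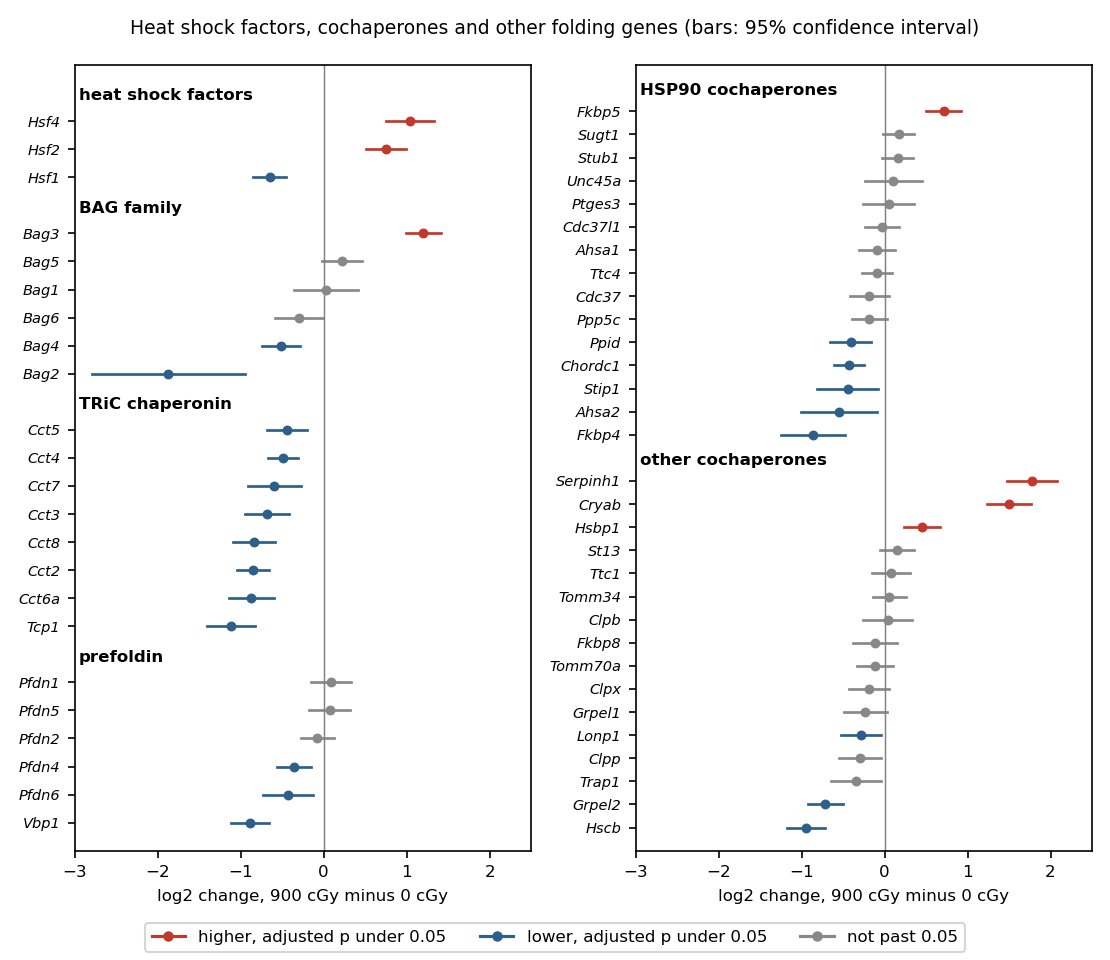
Log2 change (900 cGy minus 0 cGy) of the 54 heat shock factors, cochaperones and folding genes, with 95% confidence intervals (red, higher; blue, lower; grey, adjusted p not under 0.05). All 8 TRiC genes lie below 0, and Serpinh1, Cryab and Bag3 lie above 1.

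The smaller changes were close to the spread between pools. Among the tested members the median SD was 0.077 at 900 cGy and 0.160 at 0 cGy. In 15 of 18 lower members (83.3%) and 15 of 17 higher ones (88.2%), replicate 3 was the unirradiated array nearest the 900 cGy mean, against 51.5% of lower and 58.4% of higher genes over the array. Without that replicate 18 members were higher and 23 lower, with Hspb1 at a log2 change of 2.18, Hspa1a at 1.97 and Hsp90aa1 at -0.94. Only 10 were lower without 900 cGy replicate 2, and 11 without 900 cGy replicate 3. Leaving out single arrays ended the call of Dnaja2 in 5 of 6 fits, those of Dnajb8, Dnajc1, Dnajc17, Hspa9 and Hspbp1 in 4 each, that of Dnajc8 without 900 cGy replicate 2 or 3, and that of Hspe1 without 900 cGy replicate 2 (adjusted p = 0.0553).

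The first row of the slide held all 0 cGy arrays and 900 cGy replicate 1, and the second row held the other 900 cGy arrays. As the second row had no 0 cGy array, the block fit takes its log2 changes from 900 cGy replicate 1 alone against the 0 cGy arrays. A fit within the first row gives the same changes, such as 2.05 for Hspb1 and -1.53 for Dnajc9. These fits differ in how the spread is estimated and are not separate checks. With the row as a block, 13 members were higher and 6 lower; within the first row alone, where the lone 900 cGy array is assumed to vary like the others, 10 were higher and 3 lower.

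Hspb1, Hspb2, Hspb7, Hspb8, Hspa1a, Dnajb13, Hspa12b, Hspa13, Dnajc12 and Dnajc22 passed in both of these row fits, which rest on the same log2 changes. So did Dnajb1, Dnajc2 and Dnajc9. Hspa4, Hspa14, Dnajc16, Dnajc18, Dnajc21 and Dnajc28 passed with the block but not within the row, and so did Hsf1, Hsf2 and Bag2. With the row as a block Hsp90aa1 had a log2 change of -0.68 (adjusted p = 0.0954), Hspd1 of -0.64 (0.0569), Hspe1 of -0.37 (0.112) and Hsph1 of -0.50 (0.08), so their calls were lost at similar sizes. Scaled to the spike-in probes, 10 members were higher and 25 lower, all genes shifting to a median of -0.34; the 10 are among the 17. Dnajb8, Dnajb14, Dnajc1, Dnajc15, Dnajc16, Dnajc18 and Dnajc28 lost their calls under that scaling, with log2 changes between 0.04 and 0.33.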

How the data were processed

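Total RNA of whole splenocytes was hybridised, 1 colour (Cy3), to 6 Agilent mouse arrays. Agilent Feature Extraction 10.5.1.1 read the scans, per the submitters' processing notes. It subtracted background from the deposited intensity and removed spatial trends, per the file headers, with no scaling between arrays, so dim genes have less reliable folds. The deposited outlier, background and control flags (other values, per the file headers) were used as filters. The authors' deposited log2 value table matched the scanner values scaled to the 75th percentile and centred per probe (r of at least 0.99996) and served as an alternative; the scale and direction are thereby known, and its column medians lay between -0.046 and 0.047.

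Here log2 intensity was reduced by that of each array's 75th percentile over 59305 non-control spots (1114 to 1182 at 900 cGy and 1152 to 1403 at 0 cGy), outlier spots (91 to 146 per array) were dropped and spots of a probe averaged. Symbols were updated with a RefSeq table of GRCm38.p6; probe positions are the files' own, on mm9. A gene was the probe with the highest mean, kept if all 3 arrays of either group had it well above background. Groups, taken from sample titles, were compared with limma 3.58.1 in R 4.3.3 (two-sided, adjusted over 26642 genes, threshold 0.05). Precision is limited by the number of arrays.

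The members, lists and groupings were chosen with earlier results of these data known. Values on every array are given for the heat-inducible core, the 10 largest and 10 smallest changes past the threshold, and, of the cochaperone list, Hsf1, Hsf2 and the 4 largest changes in each direction; other members were named to account for all. The fit over all probes was added after the data were seen. The fit was tested on simulated data. Deviations of arrays with the same replicate number showed little correlation (r = 0.073, 0.117 and -0.0018). With so few arrays in each group, these values cannot decide whether the numbers pair the pools.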

Additional observations from a re-analysis of the deposited data

How the results depend on the processing

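Limits are the 3 pools per group, the slide rows, the mixed cell content of the samples and the single probe that stands for most genes. That content included markers of exocrine pancreas, a tissue outside the spleen, which were far higher at 900 cGy. Adipocyte and mesothelial markers were higher too. How much tissue from outside the spleen the samples held was not tested. Of 48 named genes, normexp correction, a filter on all arrays and kept outlier spots changed no call, the authors' table ended 1 and the unfiltered fit 4. Spike-in scaling gave 10 higher members (median -0.31), 4796 higher genes over the array and a cochaperone median of -0.47; the share of calls that were higher was 30.6%, in place of 47.7%, and Hsp90ab1 (-0.20) and Hspa8 (-0.25) turned negative. Averaging probes turned Dnaja1 (0.12) and Dnaja2 (0.043) positive. With the slide row as a block, 6 members and 13 cochaperones were lower. In the first row alone 10 members were higher and 3 lower, 7 cochaperones were lower, and 4474 genes were higher and 3788 lower. Fewer arrays enter that fit. Its log2 changes and those of the block fit both set 900 cGy replicate 1 alone against the 0 cGy arrays. The cause of the other shifts was not tested. Leaving out 1 array at a time gave 15 to 18 higher members, 10 to 23 lower members (10 without 900 cGy replicate 2 and 11 without 900 cGy replicate 3), 7 to 8 higher and 17 to 24 lower cochaperones, and 6492 to 7758 higher and 6800 to 8974 lower genes; Hspa8 ran between -0.010 (without 0 cGy replicate 3) and 0.091, and was at -0.0023 without 900 cGy replicate 1. With the replicate number as a block, 17 members were higher and 16 lower.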

Other observations

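Among members that are mainly testis genes, grouped with the values known, 2 of 7 tested rose (Dnajb13 and Dnajb8) and 1 fell (Dnajb3). Another 4 did not pass (Hspa1l, Hspa2, Hspb9 and Dnajc5b). Over all genes, 28.3% were higher and 31% lower. Dnajb7, well above background on 1 array of each group, and Dnajc5g, on none, were not tested. In Dnajb3, Dnajb2 and the cochaperone Bag2 the array of replicate 3 was the lowest of the 0 cGy group, as it was for the erythroid and dividing-cell marker sums.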
